A study of Rattus norvegicus with 2 samples.

Results

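The genes described here encode the proteins of the cytosolic ribosome, and their messenger RNA was measured in the liver of rats fed a choline-deficient or a control diet. Members were taken by name alone, as every gene probe of the array whose gene name is Rpl or Rps with a number and optional letters, or Rplp0, Rplp1, Rplp2 or Rpsa. The S6 kinases, whose names start with Rps6k, were left out. This gave 81 genes of the 33719 gene names on the array, carried by 126 probes on 135 spots. They comprised 43 proteins of the large subunit, 31 of the small subunit with Rpsa, the 3 stalk proteins and 4 paralogs named with a trailing l (Rpl10l, Rpl36al, Rpl39l and Rpl3l).

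Total liver RNA came from Wister rats, as the labels spell the strain, that were 7 weeks old and had eaten either diet for 10 days. The sample titles speak of 4 choline-deficient animals, and the labels name no genetic change, no further agent and no other feature that the groups differ in. There were 2 two-colour arrays with swapped dyes: choline-deficient RNA was Cy5 and control RNA Cy3 on array 1, and the dyes were the other way round on array 2. The labels do not say whether the arrays held different rats or the same extracts. The spread behind each p-value is therefore only that between 2 arrays, and it may be technical. It is mostly borrowed from all kept probes: limma's moderated test had 1 residual degree of freedom and a prior of 22.2. Every value below is a log2 ratio of choline-deficient over control, turned for the dye swap, so that a positive value means more signal with the deficient diet. In bulk liver RNA, fewer cells of a type and less RNA per cell cannot be told apart.

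A ribosome has a small subunit, which holds the messenger RNA and decodes it, and a large subunit, which joins amino acids. Cells make the ribosomal proteins in near-equal numbers, since excess protein that finds no place in a subunit is degraded. Their messenger RNAs are among the most abundant in hepatocytes and most begin with a run of pyrimidines, the TOP motif, through which the kinase complex mTORC1 and the RNA-binding protein Larp1 set how much they are translated. Choline is needed to make phosphatidylcholine, and a diet without it leads to fat accumulation in rat liver.

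The letters at the RefSeq start sites show how the members begin, and they are shown here because the motif sets the class apart. A start-site sequence of the GRCr8 build was found for 64 of the 81 genes. In each line below, 10 bases precede the start and 20 follow it, and the run of C and T that begins at the start is in capitals. Rplp1 (chr8:71290853-71290882, minus strand), Rplp0 (chr12:46718371-46718400, minus strand) and Rps27 (chr2:177964587-177964616, minus strand) begin with C and a run, Rps23 (chr2:23814507-23814536, plus strand) and Rpl29 (chr8:115947633-115947662, plus strand) begin with T, and Rps28 (chr7:15311314-15311343, minus strand) begins with a purine.
Rplp1: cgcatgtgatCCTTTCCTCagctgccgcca
Rplp0: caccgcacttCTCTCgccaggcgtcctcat
Rps27: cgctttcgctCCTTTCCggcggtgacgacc
Rps23: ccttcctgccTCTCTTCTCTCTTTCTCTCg
Rpl29: tttctctttcTCTTCCggtcccaggcgctg
Rps28: ccctgctcacgtgactcctctccgctagat
A start with C followed by at least 4 further C or T, the strict form of the motif, was annotated for 23 of the 64 genes (35.9%) against 881 of all 33469 start sites (2.63%). Annotated starts can lie a few bases from the true start, so a missing motif says only that these letters are not in this window. In the windows from 250 bases before to 50 after the start, CCGGAAG on either strand, the core bound by ETS factors, was found for 31.3% of members and 8.75% of all promoters. GGGCGG, the SP1 box, was found on either strand for 57.8% and 33.1%, AAGATGGC, a YY1 core, for 7.81% and 3.17%, and TATAAA for 9.38% and 14.2%; matches of different motifs may overlap. The strict pyrimidine start did not go with the array values: the median log2 ratio was 0.09 over the 23 genes that have it and 0.08 over the 41 that do not, given as a description.

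After loess normalization, most ribosomal protein genes had log2 ratios near 0, with a median of 0.09. With each array centred on its median in place of loess, that median was 0.26, all 124 kept members lay above 0, and they stood 0.19 above the median of all probes against 0.09 with loess. Of the 126 probes, 124 were bright enough to be kept, and all 124 stood well above background for both diets on both arrays. The 2 that were not kept were the second probes of Rpl28 and Rps26, so every gene still had a kept probe. Rpl32, a protein of the large subunit, rose on average by 0.40, and it was the only probe of the 124 that passed an adjusted p of 0.05 (limma's moderated test of the mean against 0, Benjamini-Hochberg over 22364 kept probes). No member passed in the lower direction. Over all kept probes, 7.17% passed, 3.54% in the higher and 3.63% in the lower direction, so that the members' 1 of 124 lay below the background. Before adjustment, 13 of 124 members (10.5%) and 3717 of all kept probes (16.6%) had a p under 0.05.

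The members' mean log2 ratios ranged from -0.11, for a probe of Rpl36al, to 0.40, with a median of 0.09 and quartiles of 0.04 and 0.15. The median of all kept probes was 0.00. Of the 124, 108 (87.1%) had a mean above 0, against 49.9% of all kept probes. The arrays did not give this shift equally: the members' median was 0.15 on array 1, where 109 were above 0, and 0.02 on array 2, where 66 were. Both arrays were above 0 for 56 members (45.2%) and both below 0 for 5, while 63 (50.8%) had opposite signs. Over all kept probes both arrays were above 0 for 29.0% and opposite for 43.9%.

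The interval of each mean shows what size of change the arrays could hold, given a spread mostly borrowed from all kept probes. Those had a median log2 intensity of 8.31, against 15.02 for the members. With a spread fitted to intensity, 4 members rather than 13 had an unadjusted p under 0.05 in limma's test. Over all kept probes 4055 rather than 3717 did. The intervals may therefore be too narrow for bright members. For 122 of the 124 probes (98.4%) the 95% interval from limma lay inside a 1.5-fold change in either direction, which is 0.58 on the log2 scale. The same was so for 94.9% of all kept probes and for 80.5% of the 626 other probes whose spots were brighter than 14.07, the lower quartile of the members' log2 intensity. Those bright probes, which include albumin, apolipoproteins and other abundant liver messages, had a median of -0.04, and 25 passed in the higher and 113 in the lower direction. The SD of the means was 0.09 over the member probes and 0.28 over these bright probes. No test was made of this difference, since probes are not replicates of a diet.

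**Figure D1:**
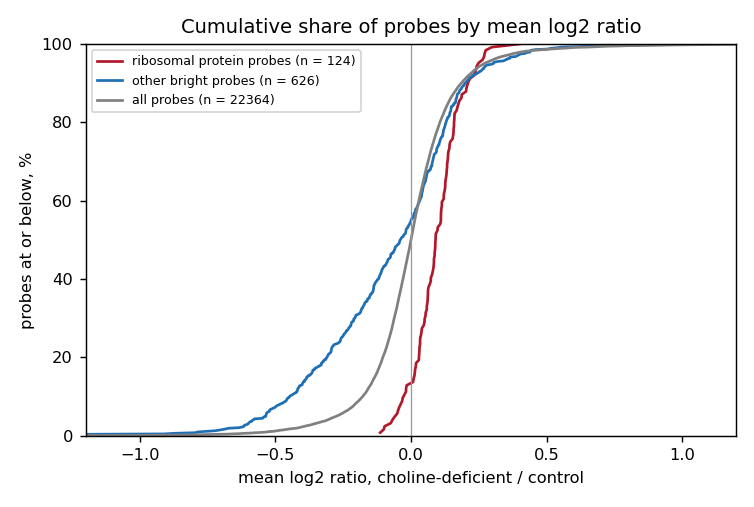
Cumulative share of probes (vertical axis, percent) at or below each mean log2 ratio of choline-deficient over control (horizontal axis), for 124 ribosomal protein probes, 626 other probes brighter than 14.07 in log2 intensity and all 22364 kept probes. The curve of the ribosomal protein probes is the steepest of the 3 and sits to the right of 0, with a median of 0.09.

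Rpl32 needs its arrays side by side. On array 1 its log2 signal was 15.43 for control and 16.14 for choline-deficient RNA, a ratio of 0.71. On array 2 it was 15.99 and 16.09, a ratio of 0.10. The arrays therefore had the same sign, but the increase was large only where the deficient RNA carried Cy5. The mean was 0.40 ± 0.43 (SD, n = 2 arrays), a 1.32-fold increase with an adjusted p of 0.0336 (limma) and a 95% interval of 0.16 to 0.64. Both rest on limma's standard error of 0.12, for which the probe's own spread was drawn towards that of all kept probes. The call was lost with the authors' deposited log ratio (0.41, adjusted p 0.451 by limma), with a smaller offset of 16 (0.42, adjusted p 0.108), with centring on the median in place of loess (0.56, adjusted p 1.00) and with a spread fitted to intensity (0.40, adjusted p 0.154).

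The Rpl32 probe is listed at chr6:145183464-145183523 of the rn4 build on the minus strand, and whether that place is the gene or a copy was not settled here because no rn4 annotation was used. A probe that the array describes as L32-like, listed at chrX:78602881-78602940 on the plus strand, shares a run of 31 bases with it, which is in capitals below.
Rpl32 probe: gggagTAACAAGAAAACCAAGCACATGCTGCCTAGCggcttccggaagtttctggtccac
L32-like probe: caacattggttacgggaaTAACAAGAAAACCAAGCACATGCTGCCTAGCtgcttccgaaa
The L32-like probe gave 0.08 on array 1 and 0.24 on array 2, a mean of 0.16 (adjusted p 0.506, limma). Ribosomal protein genes have many processed copies in mammalian genomes, and signal of a gene and its near copies cannot be told apart where they share a probe. In all, 20 member probes of 13 genes shared 25 bases or more with a probe of another name.

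Among large-subunit genes, each by its brightest probe, the median was 0.09 and 39 of 43 were above 0. Apart from Rpl32, the highest were Rpl23a and Rpl29. Rpl23a, which sits at the exit of the tunnel through which the new chain leaves, had 0.19 on array 1 and 0.36 on array 2 (mean 0.28 ± 0.11, adjusted p 0.107, limma). Rpl29 had 0.19 and 0.36 as well (mean 0.27 ± 0.12, adjusted p 0.114, limma), and its 3 other probes had means of 0.24, 0.13 and 0.09. The arrays agreed in sign for both genes, and all 4 probes of Rpl29 lay above 0 on both arrays, yet neither gene passed the test over all probes. The 2 highest probes of Rpl29 share 33 bases and the other 2 share 17, so the probes are not separate evidence.

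The lowest large-subunit genes were near 0. Rpl4 had -0.11 and -0.08 (mean -0.10, 95% interval -0.30 to 0.10), the only large-subunit gene whose brightest probe was below 0 on both arrays. Rpl13a had -0.15 on array 1 and 0.06 on array 2, a mean of -0.04. Rpl5, which with Rpl11 carries 5S ribosomal RNA and binds Mdm2, had 0.25 and -0.30, a mean of -0.02, and its other probes had means of -0.05 and 0.01. Rpl5 thus had opposite signs on the arrays in all 3 probes, and its place among the lowest rests on values smaller than the difference between arrays.

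Among small-subunit genes the median was 0.11 and 28 of 31 were above 0. Rps23, a protein of the decoding centre, had the highest mean of the subunit and the widest gap between arrays of the 81 genes: 0.80 on array 1 and -0.20 on array 2, a mean of 0.30 ± 0.70 (adjusted p 0.288, limma). Rps20 had 0.74 and -0.20 with its brighter probe (mean 0.27) and 0.30 and 0.12 with its dimmer one (mean 0.21, adjusted p 0.289, limma). Rps19, the gene most often mutated in Diamond-Blackfan anaemia, had 0.28 and 0.25, a mean of 0.26 ± 0.02 (adjusted p 0.121, limma). These means are alike, but the arrays agreed for Rps19 and disagreed in sign for Rps23 and for the brighter Rps20 probe.

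At the lower end, Rps28 had 0.00 and -0.15 (mean -0.07), and its second probe had -0.12 and -0.01 (mean -0.07). Rps27 had -0.14 and 0.07, a mean of -0.04. Rps6, the substrate from which the S6 kinases take their name, had 0.42 on array 1 and -0.34 on array 2, a mean of 0.04 with a 95% interval of -0.22 to 0.30. Rpsa, which is also known as the laminin receptor, had 0.07 and 0.05, a mean of 0.06, and its other probe had a mean of 0.05. Rps4x, the X-linked form of Rps4, had 0.06 and 0.26, a mean of 0.16. None of these passed. Their limma intervals, which borrow spread from all kept probes, leave room for changes of up to about the size of the Rpl32 mean.

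The 3 stalk genes, which recruit the elongation factors to the ribosome, were above 0 on both arrays. Rplp0, often used as a reference gene, had 0.11 and 0.30, a mean of 0.20 with a 95% interval of -0.00065 to 0.41. Rplp1 had 0.31 and 0.03, a mean of 0.17 (95% interval -0.04 to 0.38). Rplp2 had 0.24 and 0.02, a mean of 0.13 (95% interval -0.08 to 0.34). Rplp1 was the only member printed as 10 spots on each array. Its spots varied by an SD of 0.09 over the 7 spots used on array 1 and 0.07 over the 10 on array 2, which is the precision within an array. The 0.28 between its arrays is wider than either.

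The 4 paralogs were the lowest subset, with a median of 0.03. Rpl36al, a copy of Rpl36a without introns, had -0.02 and -0.18 (mean -0.10), and its other probe had -0.17 and -0.06 (mean -0.11). Those probes share 54 bases, so they are not separate evidence. Rpl10l had a mean of 0.06, Rpl39l of 0.03 and Rpl3l, the form found in striated muscle, of 0.03. Rpl39l and Rpl3l were among the dimmest members, at 7.40 and 7.36 in log2 intensity. With the smaller offset of 16, which draws ratios of dim spots less towards 0, both had a mean of 0.04. With the authors' deposited log ratio Rpl3l had 0.15 and Rpl39l 0.03, and neither passed.

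**Figure D2:**
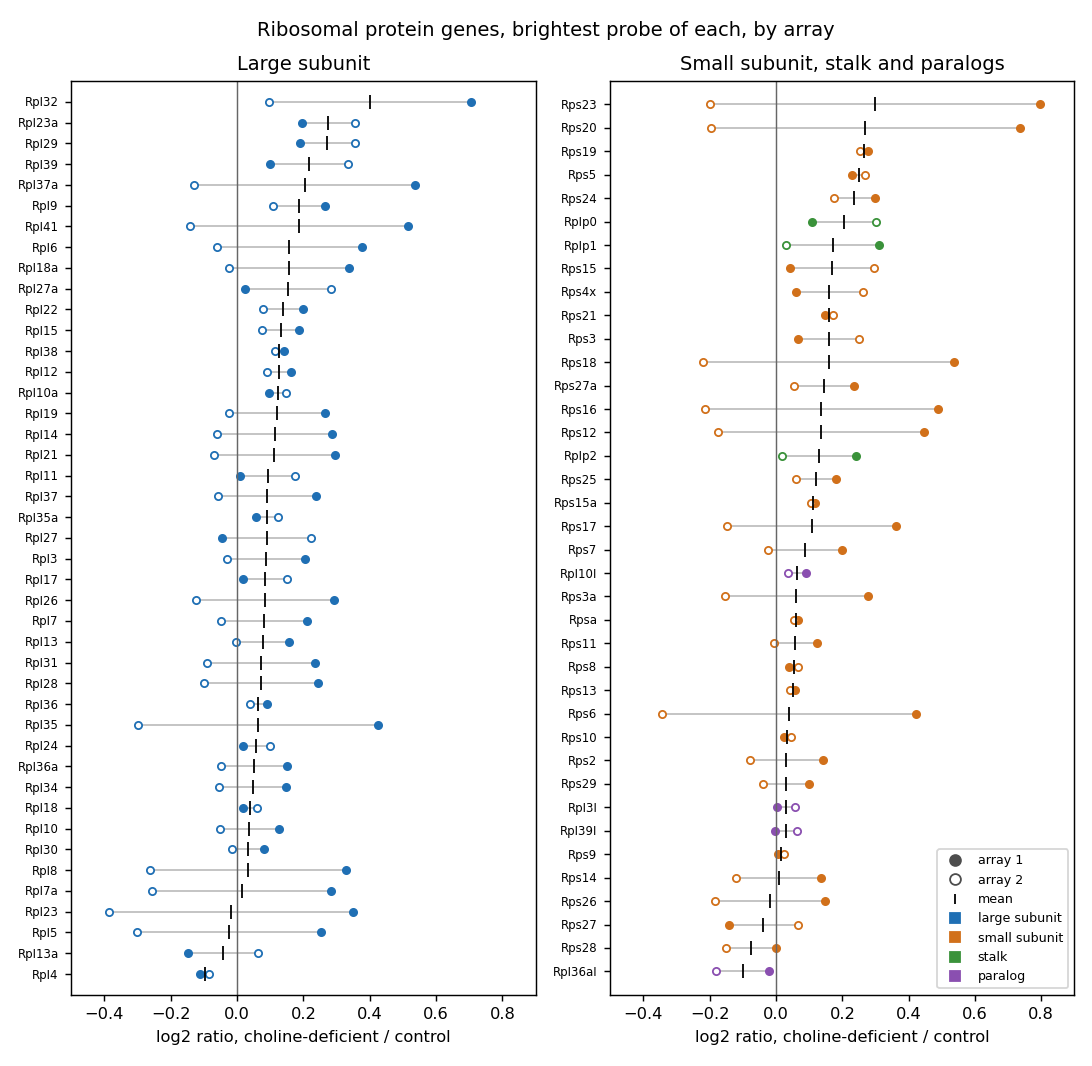
Log2 ratio of choline-deficient over control (horizontal axes) for the brightest probe of each of the 81 genes, with array 1 as filled and array 2 as open circles, their mean as a bar, and colours for the subsets; genes are ordered by mean. Rpl32 reaches 0.71 on array 1 and 0.10 on array 2, Rps23 spans 0.80 to -0.20, and most means lie between 0 and 0.3.

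The gap between the arrays went with the brightness of the spot. Of the 22 member probes with a mean log2 intensity over 16, all 22 were higher on array 1 than on array 2, and 21 had opposite signs, positive on array 1 and negative on array 2. In those 21, the normalized Cy5 signal was the brighter on both arrays, whichever diet it held. The difference between arrays divided by 2, which a dye effect would enter and a diet effect would not, had a median of 0.28 over the 22 probes, while the mean of the arrays had a median of 0.10. Over the 73 probes from 14 to 16 the same medians were 0.06 and 0.11, and over the 29 up to 14 they were 0.01 and 0.06. The mean of the arrays therefore did not climb with brightness the way the gap did.

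Other probes over 16 in intensity, 93 in number, had a median gap divided by 2 of 0.21, so the gap was not seen in ribosomal protein probes alone. Their mean of the arrays had a median of -0.19, below that of the members. Member probes made up 95 of the 757 kept probes over 14 (12.5%), and loess takes the trend at that brightness from few spots. When the members were left out of the loess fit, a setting chosen after seeing the data, their median was 0.11 above that of all probes, and it was 0.13 above when all probes described as cytosolic ribosomal proteins were left out, against 0.09. Across the 124 members the arrays correlated with Pearson's r of -0.43 and Spearman's rho of -0.45, against 0.54 and 0.30 over all kept probes. These are descriptions over probes that share both arrays, and the dyes' part in them was not tested.

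**Figure D3:**
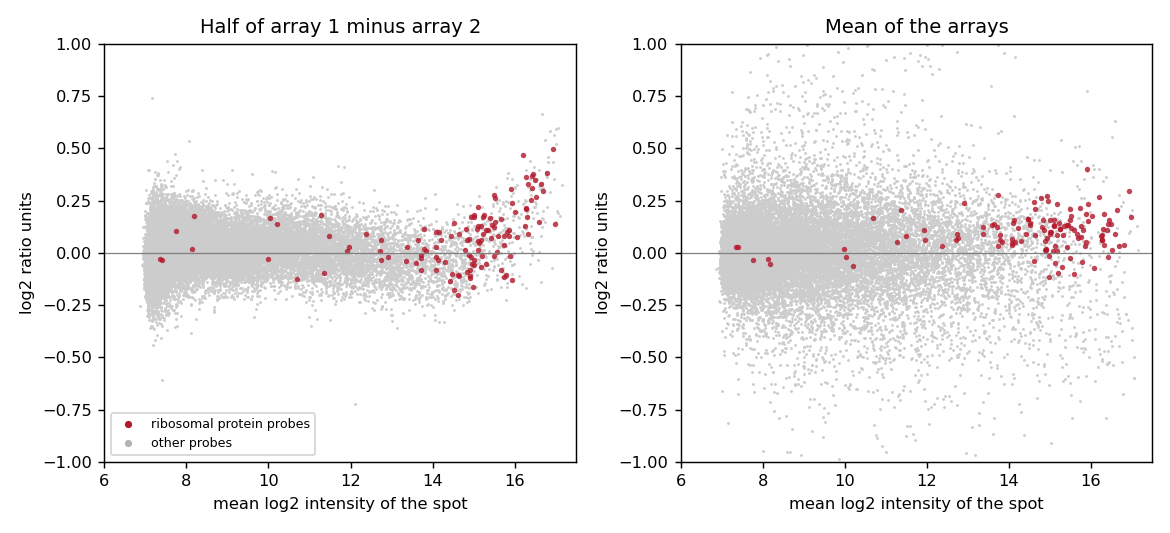
Difference between arrays divided by 2 (left) and mean of the arrays (right), both in log2 ratio units, against the mean log2 intensity of the spot, for 124 ribosomal protein probes in red and the other kept probes in grey; values beyond 1 are not shown. The red points bend upward above an intensity of 16 on the left, where their median is 0.28, and stay flat on the right, where it is 0.10.

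**Figure D4:**
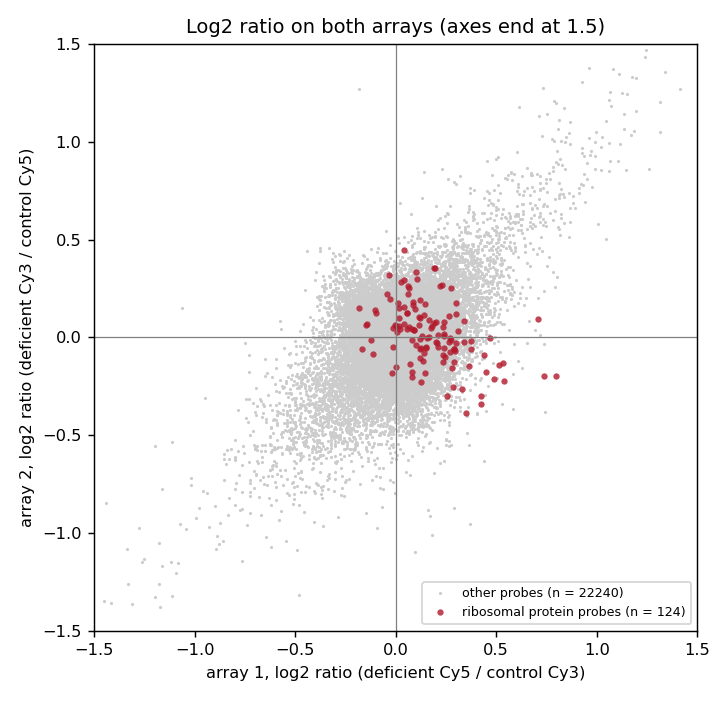
Log2 ratio of choline-deficient over control on array 1 (horizontal axis) and array 2 (vertical axis), for 124 ribosomal protein probes in red and 22240 other kept probes in grey; axes end at 1.5. The grey cloud stretches along the rising diagonal (r = 0.54 over all kept probes), while the red points lie across it (r = -0.43) with a tail at high array 1 and negative array 2 values.

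Several probes of a gene gave close means. For 32 genes with more than 1 kept probe the gap between the highest and the lowest probe mean had a median of 0.06 and reached 0.19 at most, for Rpl15. Rpl21 carried the most kept probes, 7. Probe means differed in sign for 5 genes, Rpl15, Rpl21, Rpl37, Rpl5 and Rps2. In Rpl15 the probe of 15.11 in log2 intensity had 0.13 and the probe of 10.20 had -0.06. In Rps2 the 4 probes had means of 0.03, 0.10, -0.02 and 0.02. Each of these values is a mean over both arrays, in which differences of opposite sign cancel. Within an array some probes differed more: those of Rps20 by 0.44 on array 1 and 0.31 on array 2, against 0.06 in the mean. Those of Rpl35a stayed close, at 0.06 and 0.02, against 0.02 in the mean.

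Some of these disagreements were of probes counted as reverse in orientation. By matching letters and listed rn4 positions, 5 member probes of 4 genes (Rpl21, Rpl37, Rps15 and Rps25) were so counted. Those of Rpl21 are listed on chr4, while its other probes are on chr12. The letters of 1 of them matched no other ribosomal protein probe in either direction. It was counted because it lies 97 bases from the other on the same strand. Rps25 shows the pattern in full, since its probes cover the same place, chr8:47375104-47375163 in rn4, on the plus and minus strands. The capitals mark the first 10 bases of the first probe and their reverse complement in the second.
Rps25 probe 1: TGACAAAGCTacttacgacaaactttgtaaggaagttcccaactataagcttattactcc
Rps25 probe 2: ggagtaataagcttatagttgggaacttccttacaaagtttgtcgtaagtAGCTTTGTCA
The first had a log2 intensity of 14.22 and a mean ratio of 0.12, and the second had 11.49 and 0.08. In Rpl21 the 5 probes of the usual orientation had means from 0.10 to 0.13, at intensities of 14.51 to 15.25. Its reverse probes had means of -0.05 and -0.03, at 8.19 and 8.12. The reverse probe of Rpl37 had -0.03 at an intensity of 7.76, against 0.09 at 16.60 for the other. The 5 reverse probes had intensities of 7.76 to 11.49 and means of -0.05 to 0.08. Without them, a choice made after seeing the data, the members' median was 0.10, the count of calls was unchanged at 1 higher and 0 lower of 119, and 3 of 29 genes had probes that differed in sign.

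Probes beyond the naming rule gave similar values. Fau, whose product is a ribosomal protein joined to a ubiquitin-like protein, had means of -0.05 and 0.01 in its probes. Gnb2l1, the older symbol of Rack1 on the small subunit, had 0.16. Another 217 kept probes were described by the array as cytosolic ribosomal proteins, mostly under names of predicted genes, and had a median of 0.08 with 86.6% above 0. Of these, 1 passed in the higher and 1 in the lower direction.

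The genes that build the ribosome, and those that use it or govern it, were taken from lists. Each list below uses the brightest probe of a gene, the test over all kept probes and the background of 3.54% higher and 3.63% lower. Of 58 ribosome biogenesis factors, 6 rose and none fell, with a median of 0.14 and 49 above 0. They were led by Nop56, a core protein of the box C/D particles that methylate ribosomal RNA, with 0.26 and 0.63 (mean 0.44, adjusted p 0.00777, limma). Gar1, of the box H/ACA particles that make pseudouridine, had 0.46 and 0.38 (mean 0.42, adjusted p 0.00700, limma). Tsr1, which matures the small subunit, had 0.42 and 0.34 (mean 0.38, adjusted p 0.0149, limma). The arrays agreed in sign for all of these. With the authors' deposited log ratio, under which no probe of the array passed, their means were 0.49, 0.48 and 0.40.

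The list for RNA polymerase I and transcription of the ribosomal RNA genes also held Myc (mean 0.04) and Max (mean -0.04). Of its 12 genes tested, 1 rose. This was Cd3eap, a polymerase I subunit, with 0.49 and 0.68 (mean 0.58, adjusted p 0.000313, limma). Taf1c (mean 0.34, adjusted p 0.0507) and Polr1e (mean 0.31, adjusted p 0.0690) did not pass in limma's test. Both passed with the brightest probe per gene and with a spread fitted to intensity. With the deposited log ratio or centring on the median no probe of the array passed, and so neither they nor Cd3eap did. The median of the 12 was 0.17. Whether these medians differ from that of the ribosomal proteins was not tested.

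Translation factors whose messages also carry the TOP motif had a median near that of the ribosomal proteins. Of 23 tested, 1 rose and none fell, with a median of 0.08. The one that rose was Hnrnpa1, an RNA-binding protein whose message is of the TOP class, with 0.38 and 0.47 (mean 0.42, adjusted p 0.00628, limma). Btf3 had a mean of 0.24 and Eef1g of 0.20, and neither passed. Of 32 other initiation and elongation factors none passed, with a median of 0.06. Their largest values were -0.26 for Eif4g2, 0.21 for Eif5b and 0.21 for Eif1a. Of 71 mitochondrial ribosomal proteins, which share the translation task but not the ribosome, none passed either. Their median was 0.02 and their largest means were 0.27 for Mrps34, 0.25 for Mrpl12 and 0.25 for Mrps2.

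Of 31 genes of the mTORC1 pathway, which governs translation of TOP messages, 1 rose and 3 fell, with a median of 0.01. Sesn3, an inhibitor of the pathway, had 0.39 and 0.42 (mean 0.40, adjusted p 0.00961, limma). Deptor, which binds mTOR and holds it back, had -0.40 and -0.34 (mean -0.37, adjusted p 0.0165, limma). Slc3a2, the heavy chain of an amino acid transporter, had -0.30 and -0.38 (mean -0.34, adjusted p 0.0312, limma). The fourth call, Lamtor3, had -0.20 on array 1 and -2.88 on array 2, so its mean of -1.54 rests on array 2. With the deposited log ratio, which comes from the same arrays, the mean of Lamtor3 was -0.04. Its call therefore depends on the processing as well, and the cause was not tested. Of 5 S6 kinase genes tested none passed. Rps6ka3 had a mean of 0.18, Rps6kc1 of 0.16 and Rps6kb1, the kinase of Rps6 under mTORC1, of -0.12. The dimmer kept probe of Rps6kb1 had a mean of 0.05, opposite in sign, and that of Rps6kc1 had 0.06. The Rps6ka3 probe was itself dim, at 7.35 in log2 intensity.

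**Figure D5:**
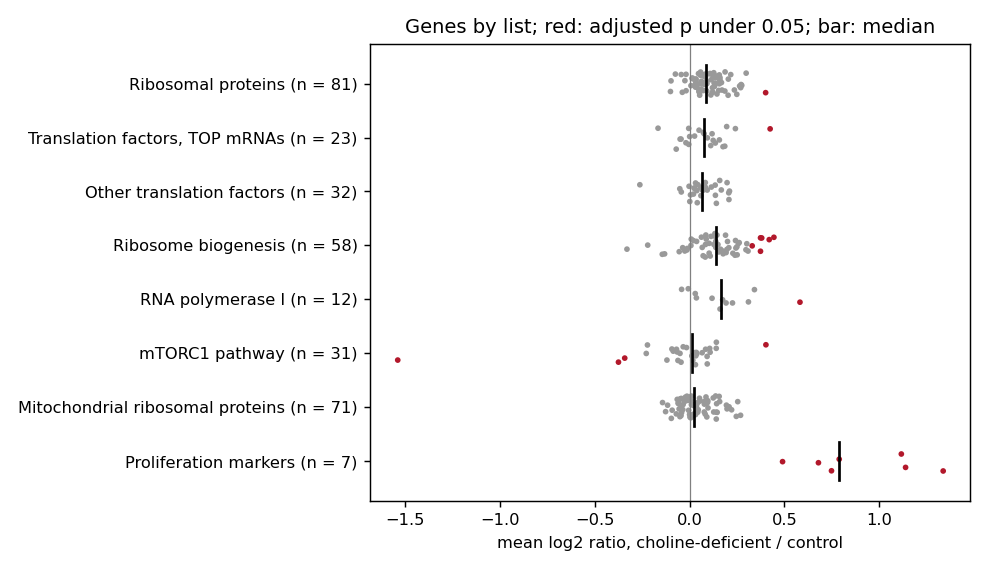
Mean log2 ratio of choline-deficient over control (horizontal axis) for each gene by its brightest probe, in 8 lists (rows), with genes of adjusted p under 0.05 (limma) in red and the list's median as a black bar; vertical scatter within a row has no meaning. The 81 ribosomal protein genes form a narrow row around 0.09, 6 of 58 biogenesis factors are red, and all 7 proliferation markers are red with a median of 0.79.

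Messages that mark cell types and proliferation were measured beside these values. All 7 markers of proliferating cells rose, from 0.49 for Pcna to 1.34 for Cdk1, with a median of 0.79. Of 11 macrophage markers 2 rose, Marco (0.91) and Lyz2 (0.69), and their median was -0.06. Of 6 stellate cell and myofibroblast markers 2 rose, Col1a1 (0.53) and Tagln (0.51). The median of the 6 was 0.19 with 4 above 0, while Pdgfrb (-0.23) and Lrat (-0.10) lay below 0. Kdr fell among 5 endothelial markers (-0.46) and Hbb-b1 among 3 erythroid ones (-0.44), while none of 5 T, NK and B cell and none of 4 cholangiocyte markers passed. All 10 hepatocyte markers were detected, Alb with a log2 intensity of 16.68, and 2 rose (Tat and Apoa1) while 2 fell (Fgb and Apob). The median of the 10 was -0.20, with only Tat and Apoa1 above 0. The arrays differed for this list, with medians of 0.24 on array 1 and -0.51 on array 2. The part of all these markers in the ribosomal protein values was not tested.

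Depth was alike on the arrays: 54.2% and 53.5% of gene spots stood well above background in Cy3 and 62.9% and 63.2% in Cy5, on array 1 and array 2, and no gene spot was saturated. Member spots were on average brighter on array 2, by a median of 0.13 on the log2 scale. The kept probe of Rps26 stood apart, at 1.96 log2 units brighter on array 2 against at most 0.34 for any other member, with ratios of 0.15 and -0.18. Its mean of -0.02 therefore joins spots of very different brightness. With 2 arrays, their number limits the precision of every value.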

How the data were processed

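Images were read by the authors with Feature Extraction, version 9.5.3.1 per the file headers and 9.5 per the submitters' processing notes, and probe positions are in rn4. The deposited files hold spot and background intensity for each dye, together with a deposited log10 ratio (Cy5 over Cy3) that the authors computed, which was turned to log2 here as an alternative. Other deposited columns are flags. Mean signal was corrected with limma 3.58.1 in R 4.3.3 (normexp, offset 50) and normalized by loess within each array, control spots at weight 0. Flagged outlier spots were left out (174 and 151 gene spots, 3 of them members), and spots of a probe were averaged. Of 41012 probes, 22364 were kept, those whose spots exceeded background clearly on each array for at least one of the diets. Ratios were turned for the dye swap and tested against 0 (lmFit and eBayes, two-sided, 1 residual degree of freedom and a prior of 22.2, Benjamini-Hochberg over all kept probes). The fit was also run on simulated data whose spread was drawn from its own prior, with no dye effect and no dependence on intensity. That run cannot show how the test behaves for bright spots with a gap between the arrays.

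The members and lists were chosen with earlier results of these data known. Genes were named by rule: members past the threshold, the 6 highest and 6 lowest by brightest probe, the stalk genes, Rpsa, Rps4x, paralogs, genes whose probes differ in sign, and up to 3 of each other list by size. Rps6, Rps15, Rps25, Rps26, Rpl28, Slc3a2, Fau, Gnb2l1 and the marker genes were named after their values were seen. Symbols are those of the array: 78 of 81 genes matched the RefSeq table by accession and 2 by symbol, and Rpl36al, Rpl37 and Rpl39l have other current symbols there. The series table of deposited values was not used. Sequences are from the scanner files and the RefSeq promoter table.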

Additional observations from a re-analysis of the deposited data

How the results depend on the processing

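Every array is itself a ratio of the diets, so the test against 0 already compared the diets within each array. There is 1 group of 2 arrays, and no further pairing was possible. With the authors' deposited log ratio and with centring on the median, 0 probes of the array passed in either direction (2584 and 26 had an unadjusted p under 0.05 in limma's test), and so 0 ribosomal protein probes. An offset of 16 gave 0 members and 536 lower probes in all, and a spread fitted to intensity gave 0 members higher. Median centring moved the median of all probes to 0.08 and that of the members to 0.26, so that 124 members were above 0 and the members stood 0.19 above all probes. Under it Rpl36al (0.061), Rpl4 (0.074), Rps28 (0.092), Rpl13a (0.12), Rps27 (0.13), Rpl5 (0.14) and Rps6kb1 (0.066) turned positive. Rpl5 was also positive with the deposited log ratio (0.0040) and with loess fitted without any ribosomal protein probes (0.013). With a single array, the members' median was 0.02 (array 2) to 0.15 (array 1). No filter on dim probes, a filter on both channels, the brightest probe per gene, loess without members and leaving out reverse probes kept 1 higher and 0 lower member. The cause of the lost calls was not tested.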
